A study of Mus musculus with 24 samples.

Results

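The genes described here encode ribosome biogenesis factors and subunits of RNA polymerase I (Pol I). They were chosen by symbol: names beginning Nop, Nol, Noc, Rrp or Utp followed by a digit, names beginning Polr1 followed by a letter, and the named factors Nolc1, Rrs1, Bop1, Pes1, Ncl, Npm1, Fbl, Dkc1, Gar1, Nhp2, Nip7, Gnl3, Tsr1, Ltv1, Bms1 and Mybbp1a. Of 19935 genes with a probe set carrying a single platform symbol, 58 met the rule, through 62 of 21780 such probe sets. All 58 were tested, since no filter on low values was applied. The symbols did not use any measured value. Of the 58 genes, Nol3, Nol4, Nol4l and Nol7 were placed in none of the role groups below and are given separately, labelled name only. That is a choice of grouping and does not say that none of them takes part in assembly.

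Ribosomes are assembled in the nucleolus. Pol I transcribes the long ribosomal RNA precursor, small nucleolar ribonucleoproteins modify it, and successive sets of assembly factors fold, cut and pack it with ribosomal proteins into the small and large subunits. The process is among the most costly a cell carries out, and in the liver it is known to follow the daily alternation of feeding and fasting.

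The samples were livers of adult male C57BL/6 mice kept on 12 h of light and 12 h of dim red light for 4 weeks and then moved to constant dim red light. Livers were taken in the second cycle after the move at 8 circadian times (CT), every 3 h from CT00 to CT21, counted so that the earlier 12 h stand for the former light phase (subjective day) and the later 12 h for the former dark phase (subjective night), when mice are active. Each time had 3 livers, extracted and hybridised separately to Affymetrix Mouse Gene 1.0 ST arrays, giving 24 arrays; the labels also speak of 4 mice per time, and the series text of 4 time points. Every group had the same strain and sex, the ages were given only as adult, and food was freely available; no allele or drug distinguished the groups, and each time was sampled in a single cycle.

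The deposited values are relative. Each probe set has a median of 0 over the 24 arrays, so a value says how far an array lay above or below that gene's own middle and nothing about its level, and neither genes nor tissue markers can be ranked by abundance. The base of the logarithm is not given in the sources used here; folds below hold for base 2. As a check of the time labels, Per2 had a fitted peak at 15.2 h, Arntl at 22.7 h, Nr1d1 at 7.29 h and Dbp at 10.1 h, and all 4 passed the 24 h test. Fewer cells of a type and less RNA per cell cannot be told apart in whole liver.

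Expression of 16 of the 58 factors followed a 24 h wave (adjusted p under 0.05; limma moderated F test of a cosine and sine term, Benjamini-Hochberg over all 19935 genes), 27.6% against 13.8% of all genes tested. In 13 of the 16 the fitted peak lay between 12 and 24 h, in the subjective night, against 1160 of the 2758 called genes. Counted over everything tested, called or not, 13 of the 58 factors and 5.82% of all genes were called with a night peak. The called factors were Nop16, Nop53, Nolc1, Nop56, Rrp12, Nop2, Polr1b, Mybbp1a, Tsr1, Polr1a, Nop14, Ncl, Nol9, Nol8, Rrp36 and Utp25. Their median amplitude, the height of the fitted wave above its centre line, was 0.19 on the log2 scale, a peak-to-trough fold of 1.30; over all called genes the median was 0.16, a fold of 1.26. Over all 58 factors the median amplitude was 0.10, a fold of 1.15, against 0.046 and a fold of 1.07 over all genes. At an unadjusted p under 0.05 the count was 33 of 58 factors and 4752 of 19935 genes. Without CT15 replicate 2 the count of called factors was 12 (all genes, 2649 of 19935), and without CT15 replicate 1 it was 22 (2766 of 19935). Without the 3 arrays of CT03, or those of CT06, it was 9, against 2132 and 2096 of 19935 genes.

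The peaks were close in time. The circular mean of the called peaks was 15.8 h, with a resultant length of 0.719 (1 for identical times, 0 for evenly spread times). Of the called factors, 3 peaked between 12 and 15 h, 8 between 15 and 18 h and 2 between 18 and 21 h. Of the 2758 called genes, 351, 332 and 219 peaked in these spans. The exceptions were Nop53 at 7.76 h, Rrp36 at 0.11 h and Ncl at 11.8 h, the last at the boundary of day and night. Counting all 58 factors, called or not, 41 (70.7%) had a fitted peak between 12 and 21 h, against 7338 of 19935 genes (36.8%). The highest time mean fell at CT12 in 21 factors, at CT15 in 16 and at CT18 in 7, against 2201, 2556 and 2446 of all 19935 genes. The lowest fell at CT03 in 20, at CT21 in 14 and at CT06 in 8. Times of the lowest mean were not counted over all genes, so these counts have no share to stand against.

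**Figure D1:**
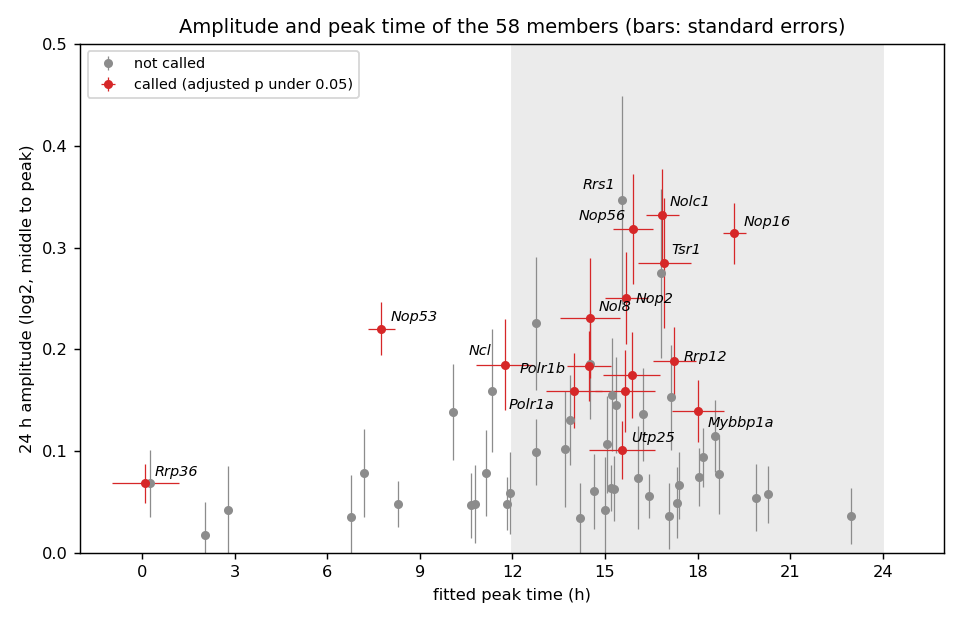
Fitted peak time (h, horizontal) and 24 h amplitude (log2, middle to peak, vertical) of each of the 58 factors; bars are standard errors, red points passed the 24 h test, and the shaded span is the subjective night. The red points gather between 14 and 19.2 h apart from Nop53, Rrp36 and Ncl, and Rrs1 has the highest amplitude but a wide error.

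The promoters of 4 of the strongest night-peaking factors are shown so that their start regions can be read for clock-related motifs; Nop56, Nop2 and Nolc1 had fitted peaks from 15.7 to 16.9 h and Nop16 a later one, at 19.2 h. Each line gives the 250 bases before the RefSeq transcription start, in the direction of the gene, and capitals mark an E-box (CACGTG), a site bound by the clock activators and by Myc among others; only Nop2 has capitals.
Nop16, GRCm38.p6 chr13:54590075-54590324, minus strand: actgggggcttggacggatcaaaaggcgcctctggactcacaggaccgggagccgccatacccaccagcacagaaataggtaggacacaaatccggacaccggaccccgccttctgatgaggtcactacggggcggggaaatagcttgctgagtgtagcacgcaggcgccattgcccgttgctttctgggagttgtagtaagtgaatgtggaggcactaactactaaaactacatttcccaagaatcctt
Nolc1, GRCm38.p6 chr19:46075597-46075846, plus strand: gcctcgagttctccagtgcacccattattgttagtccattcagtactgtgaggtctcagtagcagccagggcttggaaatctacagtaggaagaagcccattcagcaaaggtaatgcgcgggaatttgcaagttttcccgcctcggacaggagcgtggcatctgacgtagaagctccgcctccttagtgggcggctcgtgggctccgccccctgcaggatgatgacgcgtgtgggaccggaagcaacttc
Nop56, GRCm38.p6 chr2:130274162-130274411, plus strand: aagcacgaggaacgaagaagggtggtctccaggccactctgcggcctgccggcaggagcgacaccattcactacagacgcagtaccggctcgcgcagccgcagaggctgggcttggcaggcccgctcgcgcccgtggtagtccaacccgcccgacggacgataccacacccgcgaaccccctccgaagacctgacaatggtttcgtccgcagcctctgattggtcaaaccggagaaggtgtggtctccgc
Nop2, GRCm38.p6 chr6:125131633-125131882, plus strand: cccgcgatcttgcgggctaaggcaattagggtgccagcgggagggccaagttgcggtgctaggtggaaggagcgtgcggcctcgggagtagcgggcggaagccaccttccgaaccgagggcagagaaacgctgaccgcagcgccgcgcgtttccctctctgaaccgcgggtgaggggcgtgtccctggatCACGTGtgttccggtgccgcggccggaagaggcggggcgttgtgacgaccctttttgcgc
RefSeq promoters in this build were matched for 46 of the 58 factors. An E-box lay in the window of 4 of them (8.7%), Nop2, Utp25, Utp18 and Nol11, against 6.86% of 27025 genes. The D-box (TTATGTAA or TTACGTAA) was found in 0 of 46 and in 1.1% of genes. The core of the ROR element (TAGGTCA) was found for Nop58 alone and in 2.55% of genes, and the cAMP response element (TGACGTCA) for Noc4l alone and in 1.77%. The heat shock element (GAA, TTC and GAA, each 2 bases apart) was found in 0 of 46 and in 0.514%. All motifs were searched on both strands, no motif contains another, and a match is a description of the sequence. The factors' windows were rich in G and C: the median window held 59.6% G and C and 16 CpG pairs, against 52.4% and 6 over all 32851 windows.

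RNA of 2 of the 5 Pol I subunit genes named Polr1 was rhythmic, against 13.8% of all genes tested. Polr1a and Polr1b encode the largest and second largest subunits, which together form the enzyme's catalytic centre. The 3 values of Polr1b were -0.03, -0.16 and -0.12 at CT00, -0.14, -0.20 and -0.16 at CT03, -0.16, -0.18 and 0.03 at CT06, 0.01, -0.12 and 0.17 at CT09, 0.12, 0.39 and 0.01 at CT12, 0.09, 0.34 and 0.30 at CT15, -0.09, 0.13 and 0.17 at CT18, and -0.01, -0.18 and 0.17 at CT21. All arrays from CT12 and CT15 were above 0 and all from CT00 and CT03 below it, without overlap. Its wave had an amplitude of 0.18 ± 0.03 (SE), a fold of 1.29 and a peak at 14.5 ± 0.71 h (adjusted p = 0.00148). Polr1a lay between 0.09 and 0.31 in the 6 arrays of CT12 and CT15 and between -0.36 and -0.04 in the 3 of CT03, again without overlap. For both genes the times compared were picked by their values, so these gaps are descriptions. Its fold was 1.25 and its peak 14.0 ± 0.89 h (adjusted p = 0.0118), and the call was lost without the arrays of CT03 (0.106), CT12 (0.1) or CT15 (0.0936). The other subunits named Polr1 did not pass. Polr1e had a fold of 1.17 with a fitted peak at 18.6 h (adjusted p = 0.0781). Polr1d, shared with Pol III, had 1.07 (0.505) and Polr1c, also shared, had 1.07 (0.673).

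Box C/D small nucleolar ribonucleoproteins, which methylate ribosomal RNA, contain Nop56, Nop58 and fibrillarin (Fbl). Only Nop56, which pairs with Nop58 to hold the guide RNA, passed the 24 h test, and all 3 had an unadjusted p under 0.05. Over all genes the shares were 13.8% and 4752 of 19935. The values of Nop56 were 0.20, 0.05 and -0.06 at CT00, -0.38, -0.51 and -0.38 at CT03, -0.14, -0.41 and -0.38 at CT06, -0.05, -0.23 and -0.04 at CT09, 0.43, 0.56 and 0.07 at CT12, 0.15, 0.44 and 0.17 at CT15, 0.18, 0.41 and -0.03 at CT18, and 0.03, -0.18 and 0.29 at CT21. Every array of CT03, CT06 and CT09 was below 0 and every array of CT12 and CT15 above it. The fold was 1.55 and the peak 15.9 ± 0.65 h (adjusted p = 0.000481). Nop58 had a fold of 1.46 and a fitted peak at 16.8 h (adjusted p = 0.0712), and it passed the test of any difference among the 8 times (0.0339). Fibrillarin, the methyltransferase, had a fold of 1.09 (adjusted p = 0.156). Its 2 probe sets gave 1.16 (0.0562) and 1.03 (0.921).

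Box H/ACA particles convert uridine to pseudouridine and are built from dyskerin (Dkc1), Gar1, Nhp2 and Nop10. None of the 4 passed the 24 h test by limma (all genes, 13.8%), and 1 had an unadjusted p under 0.05 (all genes, 4752 of 19935). Gar1 came nearest, with a fold of 1.14 and a fitted peak at 18.2 h (adjusted p = 0.085). Nop10 had a fold of 1.11 (0.447) and dyskerin 1.15 (0.528).

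The multifunctional nucleolar proteins were Nolc1, Ncl, Npm1, Gnl3 and Mybbp1a, and 3 of the 5 passed, against 13.8% of all genes tested. Nolc1 encodes a chaperone of small nucleolar ribonucleoproteins that also binds Pol I. Its values were 0.06, 0.02 and -0.18 at CT00, -0.44, -0.36 and -0.44 at CT03, -0.43, -0.63 and -0.45 at CT06, -0.28, -0.29 and -0.08 at CT09, 0.02, 0.31 and 0.01 at CT12, 0.07, 0.50 and -0.01 at CT15, 0.09, 0.38 and 0.01 at CT18, and 0.02, -0.11 and 0.21 at CT21. The 6 arrays of CT03 and CT06 were the lowest, with no overlap with any other time, and the replicates 2 of CT12, CT15 and CT18 were the highest. The wave had a fold of 1.58 and a peak at 16.9 ± 0.52 h (adjusted p = 3.6e-05). Mybbp1a, a repressor of ribosomal RNA transcription, had a fold of 1.21 and a peak at 18.02 ± 0.84 h (0.00708). It lost the call without CT06 (0.101) or CT18 (0.107).

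Nucleolin, nucleophosmin and nucleostemin had their highest means at CT12. Nucleolin (Ncl), which binds nascent ribosomal RNA, had its highest mean at CT12, 0.32 ± 0.14 (SD, n = 3), and its lowest at CT21, -0.22 ± 0.16. Nucleophosmin (Npm1), a histone and ribosome chaperone, had 0.31 ± 0.08 at CT12 and -0.34 ± 0.16 at CT21. Nucleostemin (Gnl3), a nucleolar GTPase, had 0.49 ± 0.19 at CT12 and -0.35 ± 0.14 at CT03. In each of these pairs of times the 3 arrays did not overlap. The pairs were picked as each gene's highest and lowest mean, which favours such a gap, so it is a description and no test. Ncl passed the 24 h test with a fold of 1.29 and a peak at 11.8 ± 0.93 h (adjusted p = 0.0165), and lost it without CT03 (0.068), CT12 (0.23), CT15 (0.0658) or CT21 (0.074). Npm1 (0.198) and Gnl3 (0.053) did not pass it, but both passed the 8-time test, at 0.00556 and 0.0112.

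**Figure D2:**
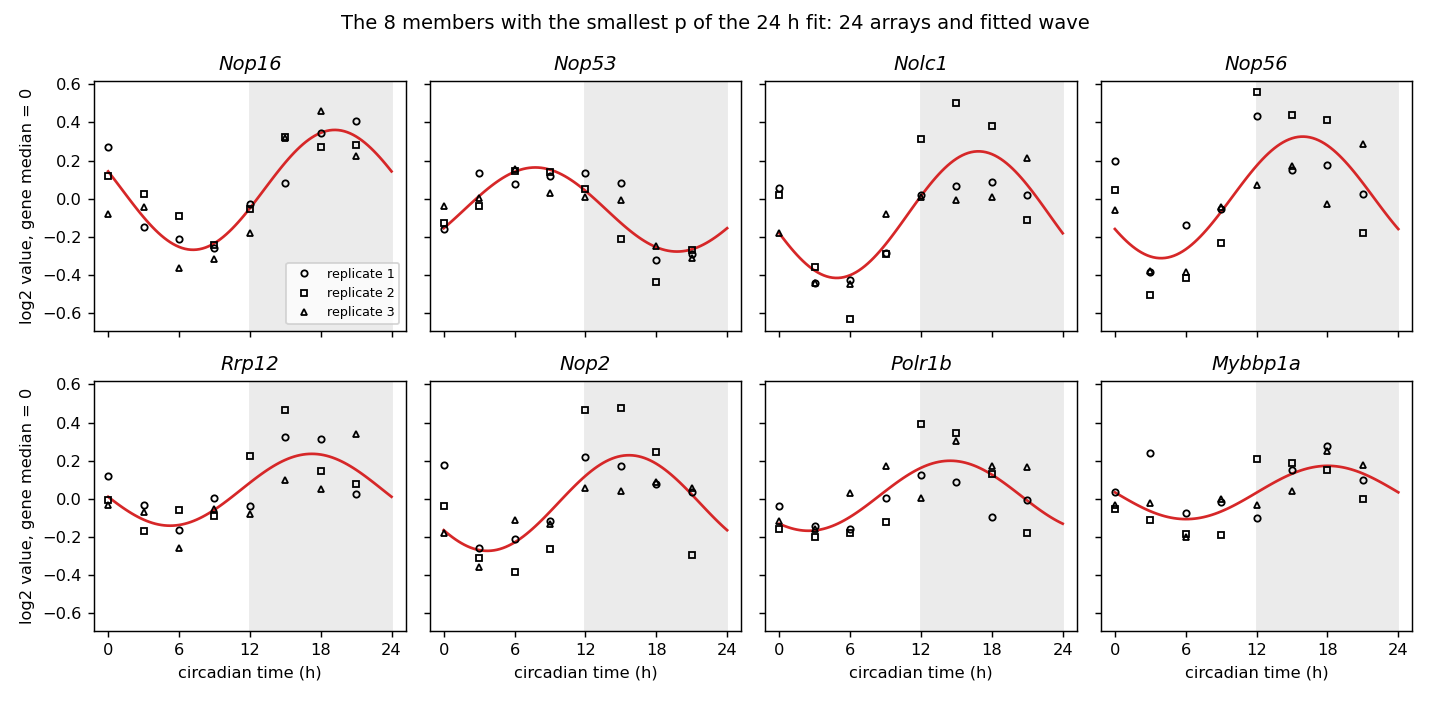
Log2 values (vertical, each gene's median set to 0) of the 24 arrays against circadian time (h, horizontal) for the 8 factors with the smallest p of the 24 h test; symbols are replicate numbers, the line is the fitted wave and the shaded span the subjective night. Nop53 is lowest at CT18 and CT21, where Nop16 is highest, and Nolc1 and Nop56 are lowest at CT03 and CT06.

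Among the 23 factors grouped here under the small subunit, Rrp8 included, 5 passed (21.7%, against 13.8% of all genes tested). In this group 13 had an unadjusted p under 0.05 (all genes, 4752 of 19935). Rrp12, needed for export and final trimming of the small subunit, was the strongest. Its values were 0.12, -0.00 and -0.03 at CT00, -0.03, -0.17 and -0.07 at CT03, -0.17, -0.06 and -0.26 at CT06, 0.00, -0.09 and -0.05 at CT09, -0.04, 0.22 and -0.08 at CT12, 0.33, 0.46 and 0.10 at CT15, 0.31, 0.15 and 0.05 at CT18, and 0.02, 0.08 and 0.34 at CT21. The arrays of CT15, CT18 and CT21 were all above 0 and those of CT03 and CT06 all below it. The fold was 1.30 and the peak 17.3 ± 0.69 h (adjusted p = 0.000982). Tsr1, a GTPase-like factor of late small-subunit precursors, had a larger fold of 1.48 with a peak at 16.9 ± 0.86 h (0.00845), which did not pass without CT03 (0.0827) or CT06 (0.0519). Nop14, a component of the early processome, had a fold of 1.27 and a peak at 15.9 ± 0.93 h (0.0164), which did not pass without CT03 (0.053), CT06 (0.0734) or CT15 (0.133).

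The threshold itself ran through the small-subunit factors. Just inside it were Rrp36, with a fold of 1.10 and a peak at 0.11 h (adjusted p = 0.0455), and Utp25, with 1.15 and 15.5 h (0.0459). Just outside were Utp4, with 1.29 and 14.5 h (0.0529), and nucleostemin at 0.053. Both inside calls depended on single arrays. Rrp36 lost its call on leaving out any 1 of 18 arrays, with adjusted p from 0.0504 to 0.111: CT00 replicates 1 and 2, all of CT03, CT06 and CT12, CT09 replicates 1 and 3, CT15 replicates 2 and 3, CT18 replicate 2, and CT21 replicates 2 and 3. Utp25 lost it on leaving out any 1 of 15, from 0.0523 to 0.107: CT00 replicates 2 and 3, CT03 replicates 2 and 3, CT06 replicates 1 and 2, CT09 replicate 3, CT12 replicates 2 and 3, CT15 replicate 2, CT18 replicates 2 and 3, and all of CT21. Utp18, a processome component, passed only the 8-time test (0.0211), with an adjusted p of 0.162 for the 24 h wave.

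Large-subunit factors held both the most precise wave and the clearest opposite one, with 5 of 14 passing and 8 at an unadjusted p under 0.05. Over all genes the shares were 13.8% and 4752 of 19935. Nop16, a factor of early large-subunit precursors, had values of 0.27, 0.12 and -0.08 at CT00, -0.15, 0.02 and -0.04 at CT03, -0.21, -0.09 and -0.36 at CT06, -0.26, -0.24 and -0.32 at CT09, -0.02, -0.05 and -0.18 at CT12, 0.08, 0.32 and 0.32 at CT15, 0.34, 0.27 and 0.46 at CT18, and 0.41, 0.28 and 0.22 at CT21. Every array from CT15 to CT21 lay above every array from CT03 to CT12. The fold was 1.55 and the peak 19.2 ± 0.36 h (adjusted p = 1.55e-07), the latest of the called night peaks.

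Nop53, which recruits the exosome to trim the large-subunit RNA, ran the other way. Its values were -0.16, -0.13 and -0.04 at CT00, 0.14, -0.04 and 0.00 at CT03, 0.08, 0.14 and 0.16 at CT06, 0.12, 0.14 and 0.03 at CT09, 0.14, 0.05 and 0.01 at CT12, 0.08, -0.21 and -0.00 at CT15, -0.32, -0.43 and -0.25 at CT18, and -0.29, -0.27 and -0.31 at CT21. The 6 arrays of CT18 and CT21 were the lowest of the 24. The fold was 1.36 and the peak 7.76 ± 0.45 h (adjusted p = 4.33e-06).

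Nop2, a methyltransferase of large-subunit RNA, had values of 0.18, -0.04 and -0.18 at CT00, -0.26, -0.31 and -0.36 at CT03, -0.21, -0.38 and -0.11 at CT06, -0.12, -0.26 and -0.13 at CT09, 0.22, 0.47 and 0.06 at CT12, 0.17, 0.48 and 0.04 at CT15, 0.08, 0.25 and 0.09 at CT18, and 0.04, -0.29 and 0.06 at CT21. All 9 arrays of CT12, CT15 and CT18 were above 0 and all 9 of CT03, CT06 and CT09 below it. The fold was 1.42 and the peak 15.7 ± 0.69 h (adjusted p = 0.00106). This is the promoter in which the E-box stands in capitals.

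Nol8 and Nol9 also passed, with less margin. Nol8, a nucleolar RNA-binding protein, had a fold of 1.38 and a peak at 14.5 h (adjusted p = 0.0236). It lost the call without CT03 replicate 1 (0.0585) or CT15 replicate 2 (0.062), and without all of CT03 (0.178), CT06 (0.0716), CT12 (0.123) or CT15 (0.116). Nol9, a kinase that acts on cut ribosomal RNA, had a fold of 1.25 and a peak at 15.6 h (0.0223). It lost the call without CT03 replicate 2 (0.0523) or CT15 replicate 2 (0.0551), and without all of CT03 (0.235), CT06 (0.109) or CT18 (0.0793). Rrs1, which brings the 5S particle into the large subunit, had the highest amplitude of the 58, 0.35 ± 0.10 (SE), a fold of 1.62, yet did not pass (0.0616). Its arrays scattered widely: at CT15 the mean was 0.24 ± 0.57 (SD, n = 3).

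The 4 genes labelled name only gave no call. Of Nol3, Nol4, Nol4l and Nol7, 0 passed and 0 had an unadjusted p under 0.05 in limma's 24 h fit, and their folds ran from 1.02 to 1.10.

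**Figure D3:**
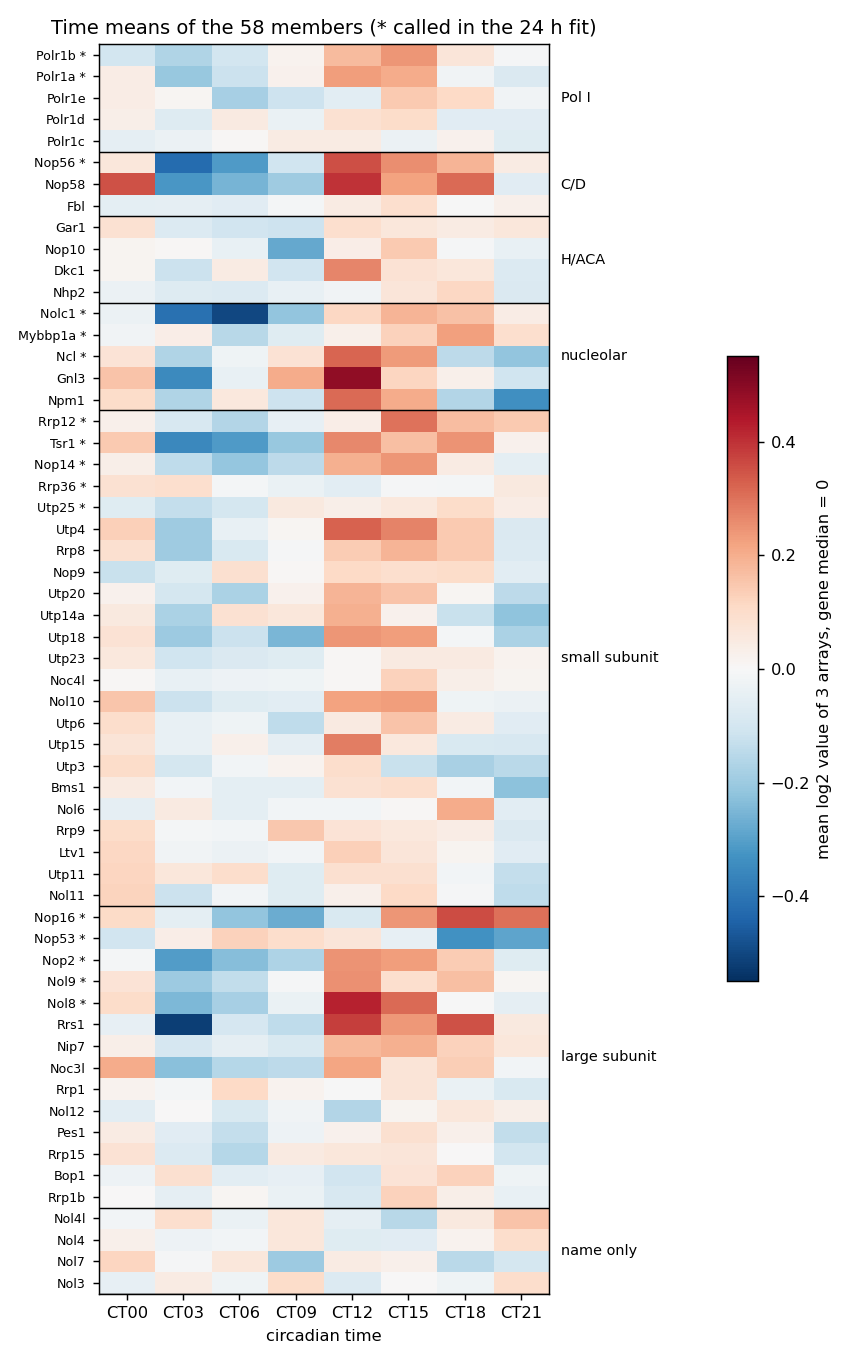
Mean log2 value of 3 arrays (colour, each gene's median set to 0) at the 8 circadian times for the 58 factors, grouped by role and ordered within a group by the p of the 24 h test; an asterisk marks the 16 that passed. Red at CT12 to CT18 and blue at CT03 and CT06 recur in most groups, with Nop53 reversed and the name-only genes pale.

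The test of any difference among the 8 times, which assumes no wave shape, called 15 of the 58 factors, against 10.9% of all genes tested, and 27 at an unadjusted p under 0.05 (all genes, 4994 of 19935). Of the 15, 11 were also called by the 24 h wave. The 4 called only here were Npm1, Gnl3, Utp18 and Nop58. The 5 called only as waves were Polr1b, Mybbp1a, Nol9, Rrp36 and Utp25. A 12 h component was called in 0 of 58 factors by limma, against 0.577% of all genes. At an unadjusted p under 0.05 there were 14 factors and 3339 of 19935 genes. Without CT03 replicate 3, 1 factor, Ncl, was called for it.

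Times 12 h apart were compared directly. CT15 against CT03 gave 10 higher factors and 0 lower, with 2.68% of all genes called higher and 1.8% lower; 29 factors and 3141 of 19935 genes had an unadjusted p under 0.05. The largest differences were Nop56, 0.68 ± 0.13 (SE, log2; adjusted p = 0.00344), Nolc1, 0.60 ± 0.12 (0.00577), and Nol8, 0.56 ± 0.14 (0.0191). Nop2, Utp18, Polr1a, Polr1b, Ncl, Rrp12 and Nop14 were the others. The median difference over the 58 was 0.17, against -0.014 over all genes, and 50 of the 58 were higher at CT15, against 8771 of 19935 genes. This count was sensitive to single arrays: it was 4 without CT15 replicate 2, 5 without CT03 replicate 1, and 6 without CT03 replicate 2 or 3.

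CT18 against CT06 gave 4 higher factors and 1 lower, against 1.43% and 3.21% of all genes. Nolc1 was higher by 0.66 ± 0.12 (SE, log2; adjusted p = 0.00301), Nop16 by 0.58 ± 0.09 (0.000536), Nop56 by 0.50 ± 0.13 (0.0325) and Mybbp1a by 0.38 ± 0.09 (0.0121). Nop53 fell, with a difference of -0.46 ± 0.07 (0.00038). The direction was higher at CT18 in 48 of 58 factors, against 10849 of 19935 genes. The count was 3 without CT06 replicate 3 or CT18 replicate 1, and 8 without CT15 replicate 2.

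CT21 against CT09 called Nop16, higher by 0.58 ± 0.09 (SE, log2; adjusted p = 0.000423), and Nop53, with a difference of -0.39 ± 0.07 (0.00172), while 1.56% of all genes were called higher and 2% lower. At this pair of times 29 of the 58 were higher, against 9947 of 19935 genes. CT12 against CT00 called 0 of 58 by limma, with 12 at an unadjusted p under 0.05 (all genes, 2203 of 19935) and with 1.79% of all genes called higher and 1.67% lower. Differences between these pairs of times were not tested.

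Array by array, the median of the 58 factors followed the same course. Its time means were 0.033 at CT00, -0.069 at CT03, -0.062 at CT06, -0.040 at CT09, 0.099 at CT12, 0.125 at CT15, 0.047 at CT18 and -0.037 at CT21. CT15 replicate 2 stood highest at 0.297, with 53 of the 58 factors above 0; the other arrays of CT15 were at 0.037 and 0.040. CT12 replicates 1 and 2 were at 0.133 and 0.166, and replicate 3 at -0.0025. The mean of 51 small nucleolar RNA genes on the same arrays, whose transcripts lie mostly in introns of host genes, moved in part alongside: it averaged 0.097 at CT00, -0.095 at CT03, 0.103 at CT12, 0.087 at CT15 and -0.069 at CT18. With it as a covariate, 17 of the 58 factors passed the 24 h test (all genes, 3039 of 19935). The 8-time test then called 9 and CT15 against CT03 called 5.

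**Figure D4:**
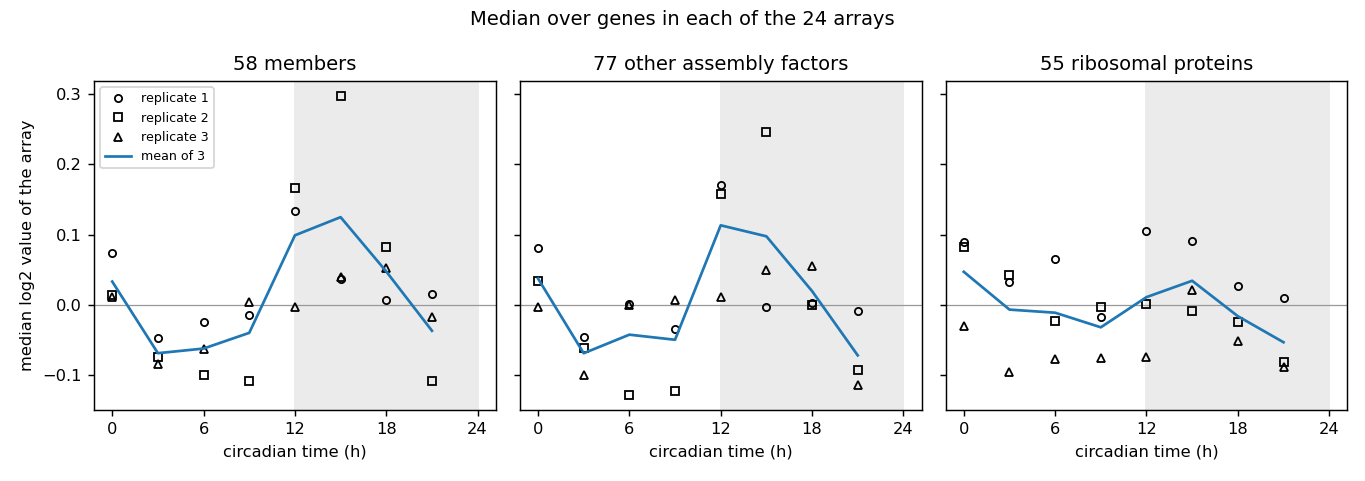
Median log2 value over genes (vertical) in each of the 24 arrays against circadian time (h, horizontal), for the 58 factors, 77 other assembly factors and 55 ribosomal protein genes; symbols are replicate numbers and lines join the means of 3. The factors and the other assembly factors are highest at CT12 and CT15, led by CT15 replicate 2 at 0.297, while the ribosomal protein means stay between -0.053 and 0.047.

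Genes that work beside these factors were read from lists of the same pathway that the name rule does not take in. Of 18 Pol I regulators and further subunits, 7 passed the 24 h test (38.9%, against 13.8% of all genes tested). Night peaks were found in 4 of these 7, against 1160 of the 2758 called genes. Top1, which relieves the twisting of transcribed DNA, had a fold of 1.38 and a peak at 15.2 h (adjusted p = 0.000982). Max, the partner of Myc, had 1.30 and 14.8 h (0.0061). Rrn3, the factor that makes Pol I able to start, had 1.45 and 14.9 h (0.00871), close to the peaks of Polr1a and Polr1b. Ubtf, which binds ribosomal DNA along its length, peaked by day at 6.37 h, with 1.18 (0.0163). Myc had a fold of 1.61 that did not pass (0.539). Of 3 Pol I subunits listed under older symbols, Znrd1 passed, with 1.22 and 18.2 h (0.0359), and Cd3eap (0.67) and Twistnb (0.847) did not.

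Assembly factors outside the name rule showed night peaks as well. Among all called genes, 1160 of 2758 had a night peak. Of 33 further small-subunit factors, 12 passed (36.4%, against 13.8% of all genes tested), 10 of them with night peaks. The smallest p-values there included day peaks: Rcl1, with a fold of 1.53 at 7.14 h (adjusted p = 4.74e-07), and Imp3, with 1.28 at 9.80 h (0.00057). Nob1, the nuclease that makes the final cut of small-subunit RNA, had 1.27 at 17.6 h (0.00173). Of 44 further large-subunit factors, 9 passed (20.5%), 8 with night peaks. Sbds, which acts at the last step of large-subunit maturation, was the day peak, with an amplitude of 0.13 at 9.70 h (0.00288). Wdr12, the partner of Bop1 and Pes1, had a fold of 1.30 at 16.0 h (0.00388), while Bop1 (0.596) and Pes1 (0.454) themselves did not pass. Rsl1d1 had 1.28 at 14.1 h (0.0159).

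The RNA exosome and its partners gave 2 of 14 (14.3%, against 13.8% of all genes tested), Xrn2 at 8.33 h (adjusted p = 0.00568) and Exosc1 at 16.9 h (0.00863), with Exosc9 next (0.0602). The other polymerases gave 1 of 13 Pol II subunits (7.69%), Polr2b, with a fold of 1.42 at 16.6 h (0.000528), and 2 of 9 Pol III subunits (22.2%), Polr3a at 8.80 h (0.00783) and Polr3g at 18.7 h (0.0222). Of 55 ribosomal protein genes with a probe set of their own, 0 passed in limma's 24 h fit and 3 had an unadjusted p under 0.05. Their median fold was 1.05. Rps21 (0.0595), Rpl14 (0.0713) and Rps20 (0.205) came nearest, and the 8-time test called Rpl14.

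**Figure D5:**
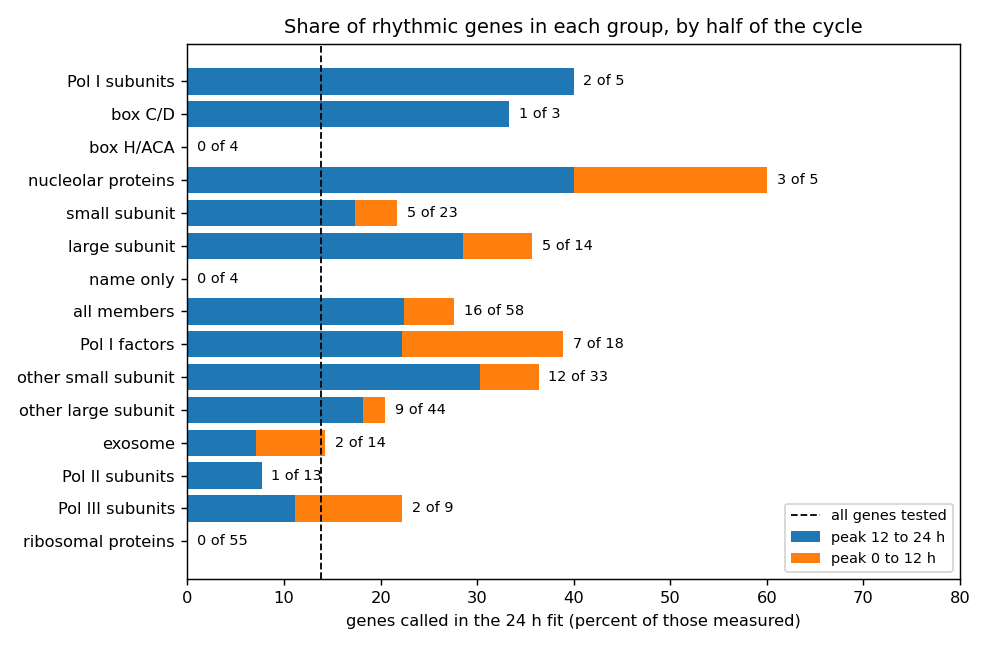
Share of genes called by the 24 h test (percent of those measured, horizontal) in each role group of the 58 factors and in each neighbouring list, split by fitted peak from 12 to 24 h and from 0 to 12 h; the dashed line is the 13.8% of all genes. The bar of all 58 factors reaches 27.6%, and the ribosomal protein row is at 0 of 55.

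Markers of liver cell types were read from the same fits, where 13.8% of all genes passed the 24 h test. The 24 h test called 0 of 5 hepatocyte, 0 of 6 Kupffer cell, 0 of 6 lymphocyte, 0 of 6 neutrophil and 0 of 6 endothelial markers in limma, where 1, 0, 0, 0 and 1 had an unadjusted p under 0.05. It called 1 of 6 stellate cell markers (Pdgfrb), 1 of 4 bile duct markers (Sox9) and 0 of 7 proliferation genes, the last with 2 at an unadjusted p under 0.05. The 8-time test called these same Pdgfrb and Sox9, and also the endothelial marker Lyve1 (adjusted p = 0.0224) and the neutrophil marker Mpo (0.0385). Lyve1 was highest at CT15, as 16 of the 58 factors were, with a difference of 0.43 ± 0.14 (SE, log2) from CT03 that did not pass (0.0913). Of the 6 endothelial markers, 4 were higher at CT15 than at CT03, with a median difference of 0.033. All 6 Kupffer cell markers were higher at CT15, with a median difference of 0.13, and 0 were called. Higher at CT15 were also 3 of 5 hepatocyte, 1 of 6 lymphocyte, 2 of 6 neutrophil, 3 of 6 stellate cell, 0 of 4 bile duct and 4 of 7 proliferation genes. Sox9 was lower at CT12 than at CT00 (0.00214), and Pdgfrb was lower in the later time of 3 pairs, CT12 against CT00 (0.00166), CT15 against CT03 (0.000595) and CT18 against CT06 (0.0322). The part of these cell types in the factors' differences was not tested.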

How the data were processed

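Liver RNA from 24 mice (3 per circadian time, 8 times) was hybridised to 1 array each, and the number of arrays limits the precision. The deposited table holds the authors' processed log2 values for 28815 probe sets, each centred on a median of 0; no source used here states the log base, normalization or software, and base 2 was assumed. Per the labels, livers were extracted individually.

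Probe sets with 1 platform symbol (21780) were averaged by gene; 1605 with several symbols and 5430 with none here were left out, among them 8 that name Npm1, Nol11 or Utp14b with another gene. With limma 3.58.1 in R 4.3.3, a 24 h cosine and sine, a 12 h pair beside it, 8 time means and 4 contrasts were fitted to 19935 genes, with Benjamini-Hochberg adjustment and a threshold of 0.05. Nothing was filtered. On simulated data of 19935 genes, the 24 h fit found 44% of waves of amplitude 0.1 and 85% of amplitude 0.2. The simulated noise was independent for each gene and array, without deviations shared across genes, so these rates may differ for the real arrays.

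The genes and lists were chosen with earlier results of these data known. Named genes were the 8 smallest p, the 3 smallest of each role and list, all Pol I subunits, the 3 largest called differences of each contrast, the highest amplitude, the calls of one test alone and the neighbours of the threshold. Promoters came from RefSeq (GRCm38.p6). Alternatives were scaling, quantile normalization, brightness classes, moderation, covariates, weights, a fold minimum, a replicate block, and leaving out arrays or times.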

Additional observations from a re-analysis of the deposited data

How the results depend on the processing

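The main settings gave 16 rhythmic factors, 15 by the 8-time test, 0 with a 12 h component, 0, 10, 5 and 2 called at CT12 against CT00, CT15 against CT03, CT18 against CT06 and CT21 against CT09, and a mean peak of 15.8 h. Nop16, Nop53, Nolc1, Nop56, Rrp12, Nop2 and Polr1b stayed called in the 24 h fit under every alternative that could be run for them, and of 659 repeats of the 16 calls 82 missed the threshold. These repeats were judged on adjusted p alone, and the fold minimum of 1.2 reused the p-values of the main fit. Under that minimum 14 were rhythmic (all genes, 1917 of 19935), and Rrp36 (1.10) and Utp25 (1.15) fell short, which the 82 do not count. Without the 4 arrays farthest from their time means (CT15 replicates 1 and 2, CT18 replicates 2 and 3) 8 were rhythmic (the 7 above and Rrp36), 9 passed the 8-time test, 0 and 2 were called at CT15 against CT03 and CT18 against CT06, and the mean peak was 16.89 h; 1 liver was then left at CT15 and at CT18, assumed to vary like those of other times. Without those 4 arrays the share of factors called rhythmic lay closer to the share of all genes than under the main settings. The brighter of 2 probe set classes was told apart only by the rounding steps the values kept. With 7 factors measured in it, 4 were rhythmic (1116 among all genes of that class) and 5 passed the 8-time test. It gave 1 (Ncl) with a 12 h component, 4 and 2 at CT15 against CT03 and CT18 against CT06, and a mean peak of 13.16 h. Without moderation the 8-time test called 9 and CT15 against CT03 called 6. The small nucleolar RNA covariate gave 9, 5 and, for CT12 against CT00, 1 (Ncl). Quantile normalization called 8 at CT18 against CT06. The cause of these shifts was not tested, apart from the fewer genes or arrays used.

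With 1 array left out, or all 3 of 1 time, rhythmic factors ran from 9 (without CT03 or CT06) to 23 (without CT00), the 8-time count from 9 (without CT03 or CT12) to 19 (without CT12 replicate 3), 12 h components from 0 to 2 (Ncl and Npm1, without CT03; Npm1 alone without CT06), CT15 against CT03 from 4 to 14, CT18 against CT06 from 3 to 8, CT21 against CT09 from 2 to 3, and the mean peak from 14.38 h (without CT00) to 16.88 h (without CT12).

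The labels do not say that replicate numbers pair the livers. Of 84 same-numbered pairs of arrays 45 had deviations correlated over 0.1, against 45 of 168 other pairs (mean r 0.0937 and -0.0465). Of the 24 arrays, 15 correlated best with their own number, a hint from the data. These values do not settle whether same-numbered livers were paired or shared a batch. The main fit used no replicate block, and the counts with one follow. With the replicate block, 19 were rhythmic (all genes, 2984 of 19935) and 17 passed the 8-time test. At CT15, CT18 and CT21 against their opposites it called 12, 5 and 2. For the 24 h wave the block dropped Utp25 (0.0565) and added Gnl3, Rrp8, Rrs1 and Utp4; at CT15 against CT03 it dropped Utp18 and added Gnl3, Rrp8 and Utp4. Signal over background cannot be read from the centred values.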
